A study of Mus musculus with 46 samples.

Results

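Perineuronal nets are lattices of extracellular matrix that wrap the cell body and proximal dendrites of certain neurons, in cortex above all the fast-spiking cells that contain parvalbumin. Hyaluronan, a sugar polymer extruded by membrane-bound hyaluronan synthases, forms the backbone. Lecticans, a family of chondroitin sulfate proteoglycans, bind to it, link proteins hold lectican and hyaluronan together, and tenascin-R ties the lecticans to each other. Neurons and glia both supply parts of a net, so RNA for a net gene inside a neuron speaks of what that cell transcribes and not of whether a net surrounds it. The genes described here are Acan, Bcan, Ncan and Vcan (the lecticans), Hapln1 and Hapln4 (link proteins), Tnr (tenascin-R), Has2 and Has3 (hyaluronan synthases) and Ptprz1 (a receptor phosphatase whose secreted form, phosphacan, binds tenascin-R). They were chosen by name, as 10 of the 23335 genes in the deposited table, and all 10 passed the filter on low counts.

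RNA was counted in 584 single GABAergic neurons of mouse frontal cortex, in 46 libraries of 7 to 16 cells. The cells were picked by red fluorescence from dissociated slices. Every sample title calls the brain WT (wild type), beside the driver and reporter alleles given here. The animals had no experimental treatment apart from the tamoxifen induction named below. PV basket cells were marked by Pv-iresCre with the Ai14 reporter in all layers (ages P58 to P83, both sexes, 16 libraries, 127 cells). Chandelier cells, which contact the axon initial segment of pyramidal cells, were marked by Nkx2.1-CreER with Ai14. Upper chandelier cells came from the border of layers 1 and 2/3 of infralimbic and prelimbic cortex (P40 to P58, female, 5 libraries, 80 cells, with the reporter of CHC1-3 labelled Ai15), and deep chandelier cells from layers 5 and 6 (P34, male, 4 libraries, 52 cells). CCK basket cells carried Vip-Flp, CCK-Cre and Ai65 (layers 2 and 3, P39 to P40, male, 4 libraries, 64 cells). Interneuron-selective cells carried Vip-Flp, CR-Cre and Ai65 (layer 2/3, P32, female, 4 libraries, 63 cells). Martinotti cells carried Sst-Flp, CR-Cre and Ai65 (layer 2/3, P35, female, 4 libraries, 62 cells). Long-projecting cells carried Sst-Flp, Nos1-Cre and Ai65 (P28 to P29, male, 9 libraries, 136 cells). Every sample carries the same statement of embryonic tamoxifen induction, which names the Nkx2.1-CreER mouse. A driver cross labels every cell that expresses or has expressed its driver genes, so a type is as pure as its cross.

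Libraries held 530926 to 4568242 counts and are named as in the labels: PVC, CHC1 (upper chandelier), CHC2 (deep chandelier), CCKC, ISC, MNC and LPC. Tests compared 16 replicates, which are animals with 1 exception. PV basket animals 7 and 8, and 9 and 10, were summed because pairs of their libraries differed by little more than sampling noise (1.22 to 1.72 times). So n is 4 in long-projecting cells and 2 in each other type. The 16 PV basket libraries form 8 such pairs, each with 1 library from either labelled animal. They are therefore not 16 separate observations. Upper chandelier replicate 2 holds the libraries labelled animal 14, for which the labels give 2 ages (58 days for CHC1-3, 40 days for CHC1-4 and CHC1-5) and 2 reporters, so it may not be 1 animal. Age, sex and flow cell follow type almost throughout and cannot be told apart from it. For flow cell the exceptions are 2 pairs run on 1 flow cell each (Martinotti and interneuron-selective cells, upper chandelier and long-projecting cells). Both pairs still differed in age, and upper chandelier and long-projecting cells in sex as well. Cells of a library mostly shared a profile of the members that had enough counts to check. This was checked in 88 pairs of a member and a library with at least 100 counts. The squared difference between cells was a median of 1.01 times that expected from counting. It was over 2 times in 7 of the 88 pairs, with a highest of 3.29 times. Acan, Bcan, Has2 and Has3 reached 100 counts in no library and were not checked. Between libraries of a type the squared difference was a median of 34.9 times over 35 pairs. Levels are therefore given per library and per replicate in CPM (a gene's counts relative to all counts of the library or replicate), and fewer expressing cells and less RNA per cell cannot be told apart. Some libraries stood apart from their label. Summed CPM of 11 oligodendrocyte markers reached 4031 in ISC-3 and 5060 in LPC-2, against 17.5 to 279 in the other 44 libraries. Vip was read at 1918 CPM in CHC2-4 and 374 CPM in CHC1-1, and Pvalb was at 0 CPM in CHC2-1.

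Levels of 5 of the 10 genes differed between types, and no type was highest in all of them. A joint test for any difference between the 7 types called these 5 members (edgeR quasi-likelihood, adjusted p under 0.05), where it called 25.0% of the 15533 genes tested. They were Hapln1 (adjusted p = 7.79e-05), Vcan (0.00292), Ptprz1 (0.00544), Bcan (0.00559) and Hapln4 (0.0215), all from edgeR. Acan, Ncan and Has3 lay just above the threshold at adjusted p = 0.0554, 0.0522 and 0.0537 in the same edgeR test, and Has2 and Tnr did not pass at 0.192 and 0.260. Hapln1 and Vcan averaged highest in deep chandelier cells, Bcan in PV basket and upper chandelier cells, Acan and Hapln4 in PV basket cells, and Ptprz1 in CCK basket cells, as the plot of members by library shows.

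**Figure D1:**
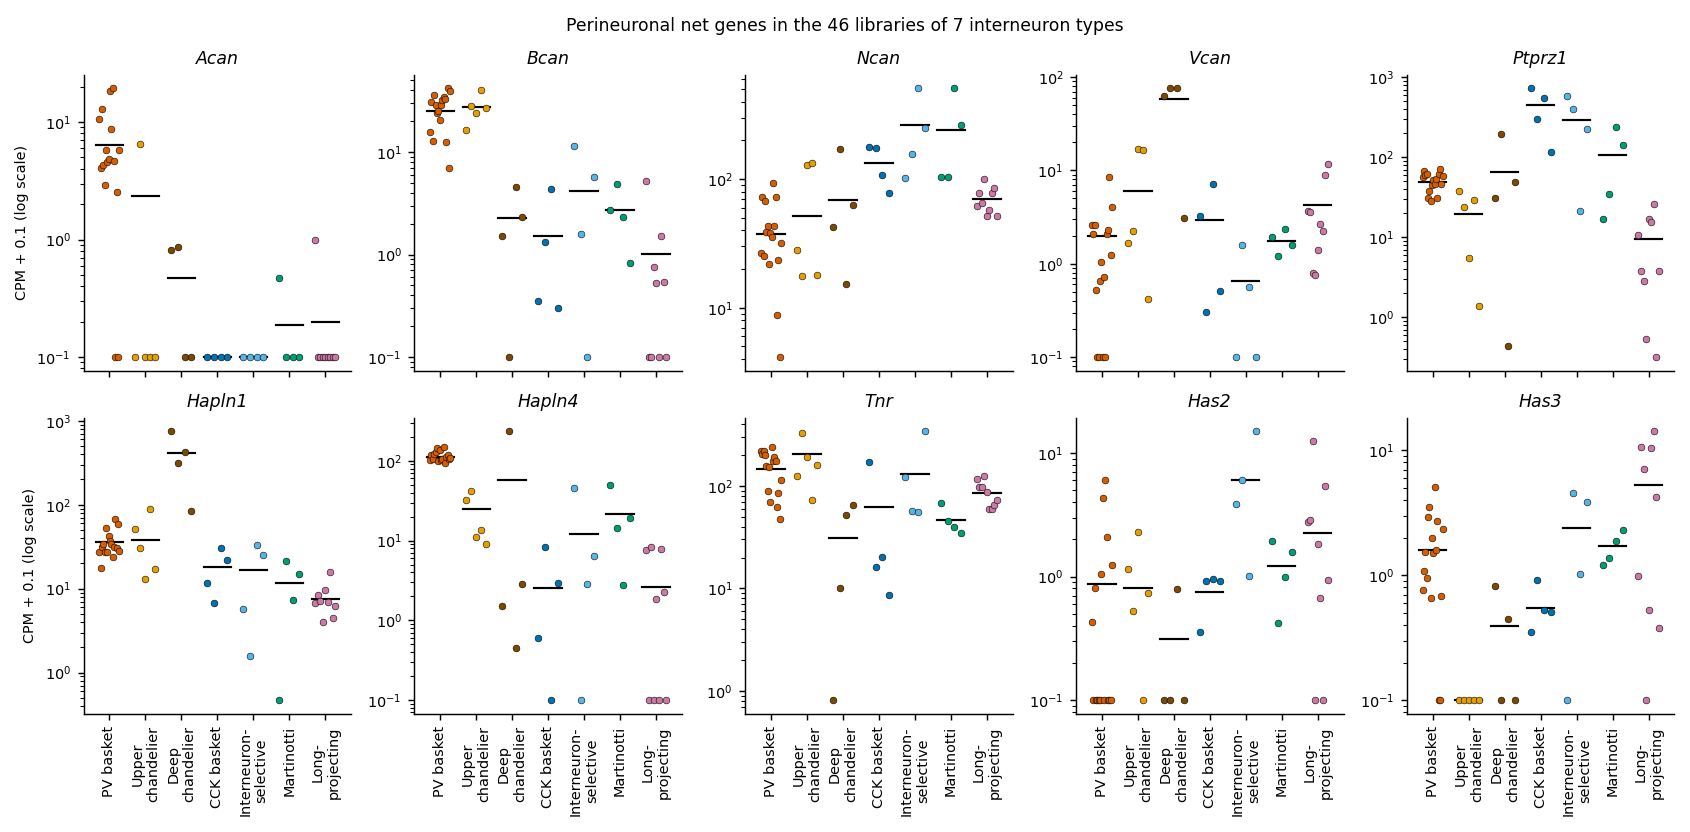
Levels of the 10 genes in each of the 46 libraries, as CPM + 0.1 on a log axis, grouped by type with PV basket and chandelier cells on the left, where points are libraries and the black line is the mean over the replicates of the type. Hapln1 and Vcan stand highest in deep chandelier libraries, Bcan in PV basket and upper chandelier libraries, and Ptprz1 in CCK basket and most interneuron-selective libraries.

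Aggrecan, encoded by Acan, is a lectican on which the assembly of cortical nets depends. Its 300-base promoter in RefSeq is shown with that of Bcan because both genes passed the test as higher in PV basket cells, and capitals mark GGGCGG on either strand, the core of the GC box bound by Sp factors. RefSeq places them on GRCm38.p6 at chr7:79052976-79053275 on the plus strand (Acan) and at chr3:88000307-88000606 on the minus strand (Bcan), each from 250 bases before to 50 bases after the start of the gene.
Acan: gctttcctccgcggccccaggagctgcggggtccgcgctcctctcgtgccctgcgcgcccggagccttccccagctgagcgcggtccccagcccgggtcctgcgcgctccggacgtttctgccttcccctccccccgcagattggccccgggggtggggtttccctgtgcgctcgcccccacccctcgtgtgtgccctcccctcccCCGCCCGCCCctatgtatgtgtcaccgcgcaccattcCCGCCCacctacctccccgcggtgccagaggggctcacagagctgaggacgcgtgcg
Bcan: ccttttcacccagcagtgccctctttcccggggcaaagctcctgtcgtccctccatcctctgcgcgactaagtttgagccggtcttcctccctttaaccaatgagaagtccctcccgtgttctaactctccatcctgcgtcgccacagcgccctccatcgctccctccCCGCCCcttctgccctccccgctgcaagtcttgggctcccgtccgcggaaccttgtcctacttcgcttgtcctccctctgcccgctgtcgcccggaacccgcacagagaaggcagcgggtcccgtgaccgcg
Acan has 3 copies of the motif, of which 2 overlap in 1 run of capitals, in a window of 74% G and C, and Bcan has 1 copy at 64%. GGGCGG stands in 35.9% of the 32544 promoters of the same length. Neither window holds TATAAA (13.6% of promoters), CACGTG (7.17%) or TGACTCA (5.19%), searched on both strands.

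Most Acan counts came from PV basket cells, at a low level. In the 16 PV basket libraries it ran from 0 to 19.4 CPM with a median of 4.66, and 2 libraries (PVC-13 and PVC-15) had none. These 2 are 1 of the pairs that agreed closely, and PVC-9 and PVC-11, with the most (18.4 and 19.4 CPM), are another. Upper chandelier cells had Acan in CHC1-2 at 6.41 CPM and at 0 in the other 4 libraries. Deep chandelier libraries held 0.715, 0.766, 0 and 0 CPM. Outside these types it was read in MNC-1 (0.370 CPM) and LPC-1 (0.889 CPM), and no CCK basket or interneuron-selective library had a count, which 3 counts over the type limit to 0.269 and 0.968 CPM. PV basket cells thus held 133 of the 153 Acan counts of the study, and both PV basket replicates lay above every other replicate although single libraries overlapped. The mean was 6.28 ± 0.874 CPM in PV basket cells (SD, n = 2) and 0.471 CPM over the other 6 types, 13.3 times higher (edgeR adjusted p = 0.027). The call rests on both PV basket replicates: without either of them the adjusted p reached 0.239 in edgeR, and DESeq2 gave Acan no adjusted p.

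Bcan encodes brevican, a brain-specific lectican that astrocytes also make. Its means were highest in upper chandelier and PV basket cells. PV basket libraries ran from 6.92 to 42.0 CPM with a median of 28.5. Upper chandelier libraries held 16.1, 28.0, 24.0, 40.3 and 26.6 CPM. No library of any other type exceeded 11.3 CPM (ISC-1), and 12 of those 25 libraries held under 1 CPM. The means were 24.8 ± 3.12 CPM in PV basket cells (SD, n = 2), where the other 6 types averaged 6.46 CPM, and 27.5 ± 4.26 CPM in upper chandelier cells (SD, n = 2), where the other 6 types averaged 6.00 CPM. On the log2 scale of the fit the differences were 2.98 ± 0.62 in PV basket cells (SE, edgeR adjusted p = 0.0165) and 3.08 ± 0.62 in upper chandelier cells (SE, edgeR adjusted p = 0.0228). PV basket and upper chandelier cells did not differ detectably from each other, at -0.09 ± 0.99 (SE, edgeR adjusted p = 0.999). Deep chandelier cells, marked by the same driver as the upper ones, held only 1.43, 0, 4.47 and 2.20 CPM. Their difference from upper chandelier cells was 3.34 ± 1.11 (SE, upper minus deep), but it did not pass (edgeR adjusted p = 0.110). Long-projecting cells had the lowest mean, 0.914 ± 0.897 CPM (SD, n = 4), where the other 6 types averaged 10.4 CPM, with a median of 0.431 and a highest of 5.11 CPM over 9 libraries (log2 change -2.45 ± 0.71, SE, edgeR adjusted p = 0.0359). The PV basket call is lost without either PV basket replicate (highest edgeR adjusted p = 0.191) and the upper chandelier call without either replicate of upper chandelier or PV basket cells (highest 0.252) or without CHC1-2 or ISC-4 (0.0561). The call in long-projecting cells is lost in 8 of 16 fits without a replicate, those without either PV basket or upper chandelier replicate among them, and in 6 of 46 without a library (highest edgeR adjusted p = 0.121).

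Ncan encodes neurocan, a lectican of the developing and adult brain that is spread through the loose matrix as well as in nets. PV basket libraries, from 4.04 to 93.2 CPM with a median of 36.6, were the lowest on average. Martinotti libraries held 103.3, 103.4, 509.9 and 262.0 CPM, interneuron-selective libraries 101.7, 156, 506 and 249 CPM, and CCK basket libraries 177, 174, 107 and 78.0 CPM. All 12 of these lay above the PV basket median, and 11 of 12 above the highest PV basket library. Long-projecting libraries lay between 51.3 and 100.7 CPM. Chandelier libraries varied, with 42.2, 170.1, 15.1 and 62.6 CPM in deep and 28.1, 17.5, 129, 133 and 17.7 CPM in upper cells. No type differed from the mean of the other 6 in the edgeR test (the lowest adjusted p was 0.0714, in interneuron-selective cells at a log2 difference of 1.5 ± 0.50, SE). The mean in PV basket cells was 37.3 ± 0.662 CPM (SD, n = 2), where the other 6 types averaged 138 CPM. This did not pass (log2 change -1.64 ± 0.64, SE, edgeR adjusted p = 0.202). It did with DESeq2 (adjusted p = 0.0490), 18 labelled animals (edgeR, 0.0186) and a spread set for each type (limma, 0.0320). It also did with 46 libraries as units, which treats libraries of an animal as separate observations. It did not with DESeq2's size factors in edgeR, without a filter on low counts or without ISC-3 and LPC-2.

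Vcan and Hapln1 lie side by side on chromosome 13, with no coding gene between them in RefSeq, and both averaged highest in deep chandelier cells. Vcan encodes versican, a lectican found in many tissues and around nodes of Ranvier in brain, and Hapln1 the link protein that stabilises the bond of lectican and hyaluronan in cartilage and in nets. Their promoters are shown for that reason, from GRCm38.p6 chr13:89742463-89742762 on the minus strand (Vcan) and chr13:89540386-89540685 on the plus strand (Hapln1), with GGGCGG of either strand in capitals.
Vcan: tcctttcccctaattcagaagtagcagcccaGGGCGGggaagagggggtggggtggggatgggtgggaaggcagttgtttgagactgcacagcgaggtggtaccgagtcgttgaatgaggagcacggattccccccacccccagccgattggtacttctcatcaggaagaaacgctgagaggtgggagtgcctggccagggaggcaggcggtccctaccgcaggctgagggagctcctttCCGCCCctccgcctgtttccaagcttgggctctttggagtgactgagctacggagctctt
Hapln1: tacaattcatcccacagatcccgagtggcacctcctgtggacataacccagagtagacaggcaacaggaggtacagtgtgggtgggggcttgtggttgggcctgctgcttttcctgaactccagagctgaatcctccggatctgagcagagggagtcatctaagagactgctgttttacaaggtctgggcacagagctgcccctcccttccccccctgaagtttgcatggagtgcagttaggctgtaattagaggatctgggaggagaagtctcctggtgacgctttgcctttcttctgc
The windows differ in make-up: that of Vcan is 61% G and C and has 2 copies of GGGCGG, and that of Hapln1 is 54.3% G and C and has none, nor any copy of the other 3 motifs on either strand.

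Deep chandelier libraries CHC2-1, CHC2-2 and CHC2-3 held 62.9, 76.2 and 76.2 CPM of Vcan, and CHC2-4 held 3.02 CPM. In the 42 other libraries the highest was 16.9 CPM, in CHC1-3, followed by 16.4 CPM in CHC1-4, and the other 3 upper chandelier libraries had 1.56, 2.14 and 0.317 CPM. PV basket libraries ran from 0 to 8.47 CPM (median 1.05) and long-projecting libraries from 0.654 to 11.5 CPM (median 2.57). Of the deep chandelier libraries, CHC2-4 alone overlapped the rest, and it is also the library with Vip at 1918 CPM. The mean was 58.7 ± 15.1 CPM in deep chandelier cells (SD, n = 2) and 2.82 CPM in the other 6 types, 20.8 times higher (log2 difference 5.08 ± 0.65, SE, edgeR adjusted p = 0.000268). The call stood in all 16 fits without a replicate and all 46 without a library (highest edgeR adjusted p = 0.00343).

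Hapln1 had the same peak. Deep chandelier libraries held 755, 312.6, 430 and 83.5 CPM, the last again CHC2-4. Upper chandelier libraries held 52.0, 30.8, 13.1, 87.9 and 17.1 CPM, and PV basket libraries 17.7 to 67.5 CPM with a median of 31.1. CHC1-4, at 87.9 CPM, was the only library outside the deep chandelier cells that exceeded CHC2-4. CCK basket (6.57 to 30.5 CPM), interneuron-selective (1.49 to 33.0 CPM) and Martinotti libraries (0.370 to 21.5 CPM) were lower, and long-projecting libraries lowest, from 3.92 to 15.6 CPM with a median of 6.84. The mean was 419 ± 173 CPM in deep chandelier cells (SD, n = 2) and 21.3 CPM in the other 6 types, 19.6 times higher (log2 difference 4.78 ± 0.40, SE, edgeR adjusted p = 1.22e-05). Long-projecting cells, at 7.51 ± 2.35 CPM (SD, n = 4), where the other 6 types averaged 89.9 CPM, were lower (log2 change -2.19 ± 0.47, SE, edgeR adjusted p = 0.00618). Both calls stood in every fit without a replicate or a library (highest edgeR adjusted p = 0.000479 for deep chandelier and 0.0438 for long-projecting cells). Across the 16 replicates log2(CPM + 1) of Vcan and Hapln1 correlated at r = 0.744, which describes 7 types with deep chandelier cells at the top of both genes. The other lectican next to a link protein gene among the members, Ncan beside Hapln4 on chromosome 8, had r = -0.227. Hapln3, next to Acan, averaged at most 0.516 CPM in any type, and Hapln2, next to Bcan, at most 0.122 CPM.

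Hapln4 encodes a brain link protein, which in mouse is needed for brevican to stay in the nets of the deep cerebellar nuclei. It was even across PV basket libraries, from 93.2 to 149 CPM with a median of 109, and all 16 lay above every library of another type but 1. That library was CHC2-2, a deep chandelier library, with 236 CPM. The other deep chandelier libraries held 1.43 CPM (CHC2-1, from the same animal), 0.344 CPM (CHC2-3) and 2.75 CPM (CHC2-4). Hapln4 was counted in all 14 cells of CHC2-2 and in 2 of 14 cells of CHC2-1. Between the cells of CHC2-2 its squared difference was 2.02 times that expected from counting. Cells of 1 library are still not separate observations. Upper chandelier libraries held 32.2, 41.5, 10.9, 13.6 and 8.87 CPM, Martinotti libraries 49.96, 14.4, 2.68 and 19.1 CPM, and interneuron-selective libraries 45.2, 0, 2.75 and 6.22 CPM. CCK basket libraries held 0.507, 8.21, 0 and 2.86 CPM, and long-projecting libraries 0 to 8.33 CPM with a median of 1.73. The mean was 113 ± 5.18 CPM in PV basket cells (SD, n = 2), where the other 6 types averaged 20.2 CPM, 5.60 times higher (log2 difference 3.27 ± 0.78, SE, edgeR adjusted p = 0.0331). That call is lost in 9 of the 16 fits without a replicate, each long-projecting and PV basket replicate among them (highest edgeR adjusted p = 0.283) and in 4 of 46 without a library, those of ISC-2, CCKC-1, CHC2-1 and LPC-8. Long-projecting cells, at 2.51 ± 1.74 CPM (SD, n = 4), where the other 6 types averaged 38.6 CPM, were lower (log2 change -3.07 ± 0.94, SE, edgeR adjusted p = 0.0437), a call lost in 11 of 16 fits without a replicate, each of the 4 long-projecting and both PV basket replicates among them (highest 0.142), and in 10 of 46 without a library. Deep chandelier cells were called higher, at 58.0 ± 80.2 CPM (SD, n = 2), where the other 6 types averaged 29.4 CPM (log2 difference 2.48 ± 0.82, SE, edgeR adjusted p = 0.0492). That call is lost or reversed in 12 of 16 fits without a replicate, 16 of 46 without a library and 3 of the 8 other settings. Its sign rests on 1 library, since without CHC2-2 the difference is -3.04 with an adjusted p of 0.0394 in edgeR.

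**Figure D2:**
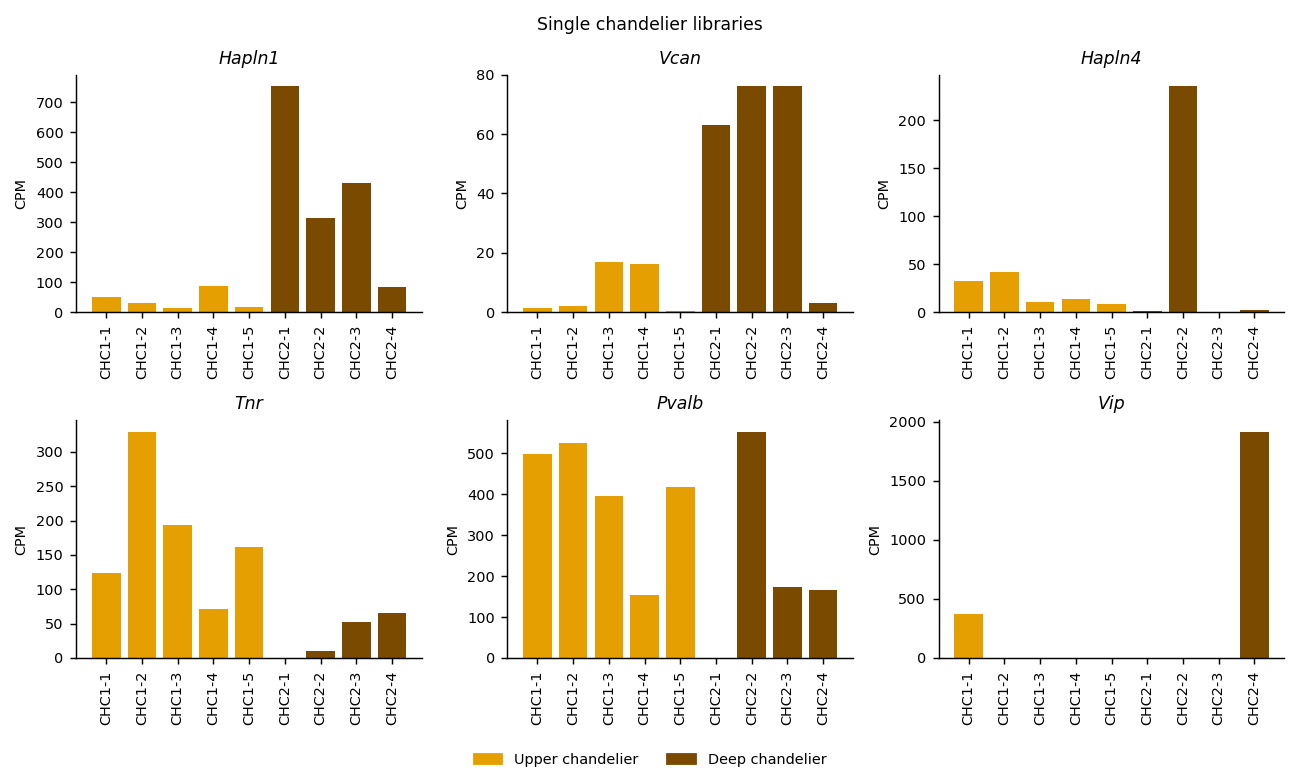
CPM of 4 net genes and of Pvalb and Vip in each chandelier library, upper (CHC1) and deep (CHC2), with a bar for each library. Hapln4 reaches 236 CPM in CHC2-2 and at most 2.75 CPM in the other deep chandelier libraries, and CHC2-4, lowest of the deep libraries for Hapln1 and Vcan, carries Vip at 1918 CPM.

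Tnr encodes tenascin-R, which bundles lecticans in the net. It was read in every library, and no type passed the test against the other 6. Libraries ran from 47.3 to 240 CPM in PV basket cells (median 165), from 71.9 to 330 CPM in upper chandelier cells and from 59.5 to 125 CPM in long-projecting cells (median 87.6). Deep chandelier libraries held 0.715, 9.96, 52.3 and 64.8 CPM, with both low values from 1 animal. CCK basket libraries held 169.9, 16.0, 20.2 and 8.58 CPM, interneuron-selective libraries 121, 56.5, 55.9 and 342 CPM, and Martinotti libraries 68.5, 45.3, 39.3 and 34.6 CPM. The highest mean, 204 ± 92.3 CPM in upper chandelier cells (SD, n = 2), stood against 83.7 CPM in the other 6 types (log2 difference 1.39 ± 0.61, SE, edgeR adjusted p = 0.348). The lowest, 31.2 ± 36.7 CPM in deep chandelier cells (SD, n = 2), stood against 113 CPM in the other 6 types (log2 change -1.47 ± 0.77, SE, edgeR adjusted p = 0.195). Replicates of each type overlapped those of its neighbour in the order of means, at every step. Without deep chandelier replicate 2 the joint test passed for Tnr (edgeR adjusted p = 0.0485).

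The hyaluronan synthases Has2 and Has3 had 109 and 146 counts in the whole study. Has2, which makes long hyaluronan chains, stood in interneuron-selective libraries at 3.77, 5.95, 0.916 and 14.9 CPM, and in 7 of 16 PV basket libraries, at up to 5.98 CPM. The mean was 5.92 ± 1.32 CPM in interneuron-selective cells (SD, n = 2), where the other 6 types averaged 0.935 CPM. It rests on 19 counts and did not pass (log2 difference 2.69 ± 0.86, SE, edgeR adjusted p = 0.0612), though it did without ISC-3 and LPC-2, the libraries of high oligodendrocyte markers (0.0247). Has3 was highest in long-projecting libraries, from 0 to 14.2 CPM with a median of 4.16, and had no count in any of the 5 upper chandelier libraries, where 3 counts over the type would be 0.426 CPM. The 4 long-projecting animals held 5.84, 0.217, 12.0 and 2.46 CPM, and the second of them lay below 5 of the 6 other type means. Their mean of 5.13 ± 5.13 CPM (SD, n = 4), where the other 6 types averaged 1.02 CPM, passed (edgeR adjusted p = 0.00852), but not with a spread set for each type (limma adjusted p = 0.209) or without long-projecting replicate 3 (edgeR adjusted p = 0.0604).

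Ptprz1 encodes a receptor-type phosphatase that binds pleiotrophin, contactin and tenascin-R. In cortex it is best known from astrocytes and oligodendrocyte precursors. Among these neurons it was highest in CCK basket libraries, at 732, 303, 555 and 115 CPM, and in 3 interneuron-selective libraries, at 578, 404 and 223 CPM, whereas ISC-3 held 21.1 CPM. Martinotti libraries held 17.0, 34.7, 236 and 141 CPM and deep chandelier libraries 30.7, 195, 0.344 and 49.4 CPM. PV basket libraries were even, from 28.3 to 70.2 CPM (median 53.1), and upper chandelier libraries held 37.4, 23.9, 5.45, 28.8 and 1.27 CPM. Long-projecting libraries lay from 0.219 to 26.2 CPM with a median of 3.69, below all 16 PV basket libraries. CCK basket libraries did not overlap PV basket, upper chandelier or long-projecting libraries. The mean was 449 ± 169 CPM in CCK basket cells (SD, n = 2), where the other 6 types averaged 90.3 CPM, 4.97 times higher (log2 difference 3.24 ± 0.62, SE, edgeR adjusted p = 0.00644), a call lost only without CCK basket replicate 1 (0.0875) among the fits that left out a replicate or a library. Long-projecting cells, at 9.31 ± 7.84 CPM (SD, n = 4), where the other 6 types averaged 164 CPM, were lower (log2 change -3.37 ± 0.75, SE, edgeR adjusted p = 0.00781), in every such fit. Interneuron-selective cells, at 294 ± 265 CPM (SD, n = 2), where the other 6 types averaged 116 CPM, came just short (log2 difference 2.18 ± 0.66, SE, edgeR adjusted p = 0.0509), and passed without ISC-3 and LPC-2 (0.0209).

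Set out by type, PV basket cells had 3 of 10 members called, all higher (Acan, Bcan and Hapln4), where 2.78% of all genes were called higher and 3.89% in either direction. Deep chandelier cells had 3 higher (Hapln1, Vcan and, through CHC2-2, Hapln4) in a comparison that called 12.3% of genes higher and 19.1% either way. Long-projecting cells had 5 of 10, with Bcan, Hapln1, Hapln4 and Ptprz1 lower and Has3 higher, where 3.40% of genes were called lower, 9.71% higher and 13.1% either way. CCK basket cells had 1 (Ptprz1 higher, with 5.22% of genes called higher and 6.30% either way) and upper chandelier cells 1 (Bcan higher, with 1.56% and 1.91%). Martinotti and interneuron-selective cells had none (5.60% and 10.0% of genes called). With an unadjusted p under 0.05 in edgeR, Martinotti cells had 2 members and interneuron-selective cells 4, and DESeq2 called 1 member in Martinotti and 2 in interneuron-selective cells. The median log2 change over the 10 members was 0.634 in PV basket cells, beside 0.0856 over all genes, -0.783 in long-projecting cells, beside 0.102, and -0.0675 in deep chandelier cells, beside -0.0839.

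**Figure D3:**
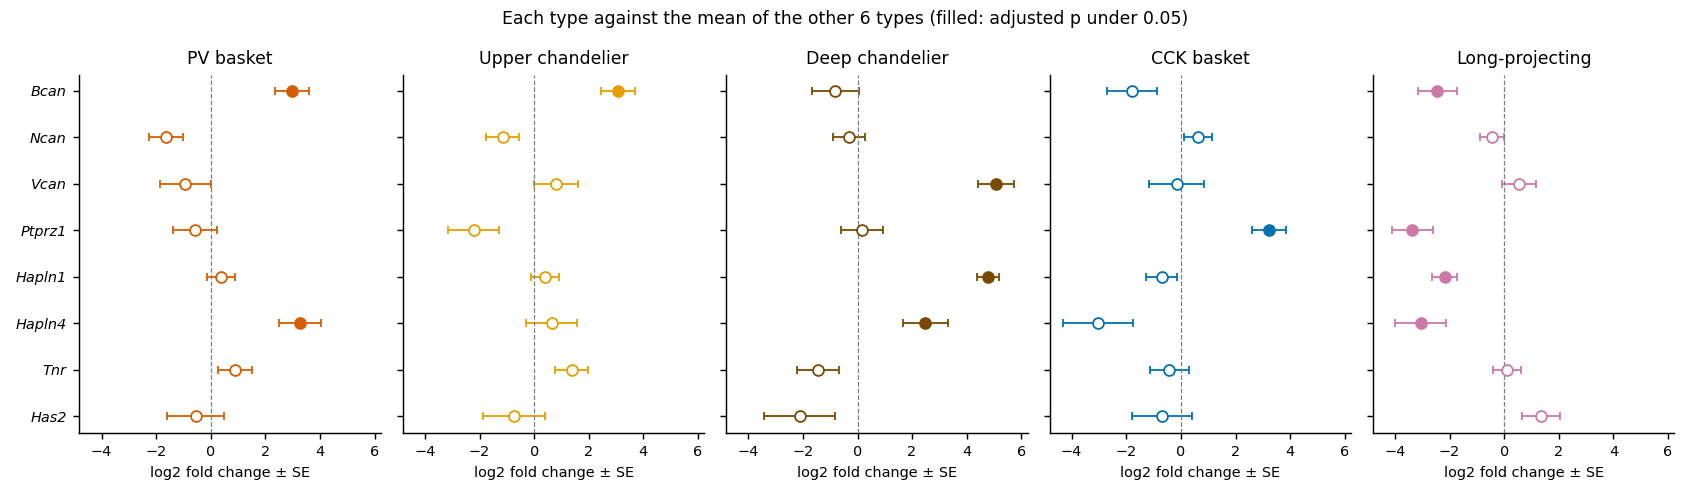
Fitted log2 fold change with its SE (bars) of 8 members in 5 types, each against the mean of the other 6 types. Filled points have an edgeR adjusted p under 0.05, and Acan and Has3 are left out because some type had no count of them, with Hapln1 and Vcan near 5 in deep chandelier cells and 4 members below -2 in long-projecting cells.

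Parvalbumin-containing cells are the usual bearers of cortical nets, so PV basket and both chandelier types were compared with the other 4 types, each type with equal weight. In this comparison 6 of 10 members passed, 5 higher and 1 lower, where 10.5% of genes did, 5.76% higher and 4.72% lower. Bcan (log2 difference 2.63 ± 0.55), Hapln1 (2.77 ± 0.37), Hapln4 (3.19 ± 0.71) and Vcan (2.47 ± 0.63) were higher, with SE, at edgeR adjusted p = 0.00718, 0.000329, 0.00977 and 0.0222. Acan was higher too (edgeR adjusted p = 0.0413), and Ncan was lower (log2 change -1.55 ± 0.41, SE, edgeR adjusted p = 0.0258). The 3 types did not share these differences evenly. Vcan and most of Hapln1 came from deep chandelier cells, Acan from PV basket cells, and Bcan was low in deep chandelier cells. The grouping goes by type and not by measured Pvalb, which stood at 0, 553, 172 and 165 CPM in CHC2-1 to CHC2-4. CHC2-1, with no Pvalb, had the highest Hapln1 (755 CPM), and CHC2-4 also held Vip at 1918 CPM. Bcan and Hapln1 passed in each fit that left out a replicate or a library and in each of the other 8 settings (highest adjusted p = 0.0456, for Bcan in edgeR). Hapln4 did not pass without CHC2-2 (0.107), without deep chandelier replicate 1 (0.142) or with a spread for each type (0.0818). Vcan did not pass in 4 of 16 fits without a replicate (highest 0.117), without CHC2-3 (0.0787) or with a spread for each type (0.154). Ncan did not pass in 6 of 16 fits without a replicate (highest 0.0854) or without CHC2-1 or CHC1-5 (highest 0.106). Acan did not pass in 14 of 16 fits without a replicate, without MNC-2, CHC2-1, CHC2-2, CHC1-2 or LPC-2, with a spread for each type or without ISC-3 and LPC-2.

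Direct pairs placed the chandelier differences. PV basket against deep chandelier cells had 2 of 10 members called (6.88% of genes, and 3.11% lower). Hapln1 was lower in PV basket cells (36.4 ± 5.63 CPM, against 419 ± 173 CPM in deep chandelier cells, SD, n = 2 each), at a log2 change of -3.78 ± 0.76 (SE, edgeR adjusted p = 0.0110), and so was Vcan (1.90 ± 0.904 against 58.7 ± 15.1 CPM, SD, n = 2 each) at -5.16 ± 1.26 (SE, edgeR adjusted p = 0.0275). Upper against deep chandelier cells had 1 call (2.83% of genes, and 1.08% lower), Hapln1, with 38.4 ± 1.99 CPM in upper and 419 ± 173 CPM in deep cells (SD, n = 2 each) and a log2 change of -3.77 ± 0.76 (SE, edgeR adjusted p = 0.0229). Vcan, at 5.86 ± 5.50 CPM in upper and 58.7 ± 15.1 CPM in deep cells (SD, n = 2 each), did not pass between them (-3.67 ± 1.18, SE, edgeR adjusted p = 0.10). PV basket against upper chandelier cells had no member called by edgeR or DESeq2 (0.399% of genes in edgeR) and 1, Has3, at an unadjusted p under 0.05. The fitted Hapln4 difference between them, 2.25 ± 1.34, did not pass (SE, edgeR adjusted p = 0.681). The Hapln1 and Vcan calls against PV basket cells are lost without either PV basket replicate (highest edgeR adjusted p = 0.209), Vcan also without deep chandelier replicate 1, CCKC-1 or CHC2-3, and the Hapln1 call between chandelier types without deep chandelier replicate 1, either upper chandelier replicate, MNC-2 or CHC2-3 (highest 0.160).

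On a shared flow cell, upper chandelier against long-projecting cells had 2 of 10 members called (4.08% of genes, 2.06% higher and 2.02% lower). Age and sex still differed between these 2 types. Bcan was higher in upper chandelier cells by 4.74 ± 0.90 on the log2 scale (SE, edgeR adjusted p = 0.00738), a call lost without upper chandelier replicate 2 (0.0653). Has3 was lower, with no count in upper chandelier cells (edgeR adjusted p = 0.0473), a call lost in 13 of 16 fits without a replicate. Hapln1 missed the threshold, with 38.4 ± 1.99 CPM in upper chandelier cells (SD, n = 2) against 7.51 ± 2.35 CPM in long-projecting cells (SD, n = 4) and a log2 difference of 2.21 ± 0.59 (SE, edgeR adjusted p = 0.0501). It passed under each of the 8 other settings (adjusted p of 0.0014 to 0.0498), among them DESeq2 (0.00697). Among the fits without a replicate it passed only without either interneuron-selective replicate, either CCK basket replicate or deep chandelier replicate 2. It passed in no fit without a replicate of upper chandelier or long-projecting cells. Martinotti against interneuron-selective cells, the other pair on 1 flow cell, had no member called by edgeR or DESeq2 (3.09% of genes in edgeR), nor had CCK basket against interneuron-selective cells (1.35%), and neither pair had a member at an unadjusted p under 0.05. Long-projecting against Martinotti cells, both marked through Sst, had 1 call (3.91% of genes, and 1.80% lower). Ptprz1 was lower in long-projecting cells at -3.39 ± 0.88 (SE, edgeR adjusted p = 0.0463), a call lost in 10 of 16 fits without a replicate and 15 of 46 without a library.

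Several members are transcribed by glia as well, so markers of glia were read in the same libraries. Summed CPM of 13 astrocyte markers ran from 782 to 1378 in upper chandelier, 570 to 1297 in CCK basket, 515 to 647 in interneuron-selective, 235 to 468 in deep chandelier, 152 to 600 in PV basket, 85.4 to 415 in Martinotti and 128 to 510 in long-projecting libraries. Gfap was at 0 in 44 of 46 libraries, and Cspg4 in most. Other markers were widespread: Slc1a3 and Glul were read in every library, Slc1a2 was at 0 only in 1 deep chandelier library, and Pdgfra only in 2 long-projecting libraries. Of the 12 astrocyte markers tested, 4 were called higher in CCK basket cells (Sox9, Slc1a2, Aldoc and Glul), where Ptprz1 was highest and 5.22% of all genes were called higher. In upper chandelier cells, where Bcan was highest, 2 were called higher (Aldh1l1 and Glul), beside 1.56% of all genes. Interneuron-selective cells had 1 higher, deep chandelier cells 1 higher and 1 lower, long-projecting cells 1 higher and 2 lower, PV basket cells 1 lower and Martinotti cells none. The part of astrocyte RNA in the results for Bcan and Ptprz1 was not tested. Upper chandelier libraries, with the highest sums, held 16.1 to 40.3 CPM of Bcan. CCK basket libraries held 0.204 to 4.29 CPM and PV basket libraries 6.92 to 42.0 CPM. Of the astrocyte sums, Glul alone made up 549 to 1080 CPM in upper chandelier, 334 to 434 in CCK basket and 67.9 to 228 CPM in PV basket libraries. In the upper chandelier libraries Gfap was at 0 in all 5, Gja1 and Sox9 in 3 of 5, Aldh1l1 and Fgfr3 in 2 of 5 and Slco1c1 in 1 of 5. Read in each, besides Glul, were Slc1a2 (31.5 to 112 CPM), Aldoc (15.8 to 85.3 CPM) and Gjb6 (0.520 to 70.3 CPM). So were Mlc1 (0.855 to 31.2 CPM), Slc1a3 (6.34 to 29.1 CPM) and Aqp4 (1.04 to 12.4 CPM). The sums of 8 oligodendrocyte precursor markers were 20.9 to 73.1 CPM in upper chandelier libraries and 0.847 to 27.7 CPM in PV basket libraries. In the upper chandelier libraries C1ql1 made up 17.6 to 57.8 CPM. Pdgfra was read in all 5, at 1.90 to 32.8 CPM, highest in CHC1-4, the library of this type with the most Bcan. Cspg4, Gpr17, Olig2 and Sox10 were at 0 in all 5, and Olig1 and Neu4 were at 0 in 4 of 5. In LPC-2, with oligodendrocyte markers at 5060 CPM, all 10 members lay within the range of the other 8 long-projecting libraries. In ISC-3, at 4031 CPM, Ncan (506 CPM) and Hapln1 (33.0 CPM) lay above the other 3 interneuron-selective libraries, Bcan (0), Tnr (55.9), Has2 (0.916) and Ptprz1 (21.1 CPM) below them, and 4 members within their range. Without both libraries no member passed in upper chandelier cells (Bcan at edgeR adjusted p = 0.0575), and Bcan and Hapln4 no longer passed in long-projecting cells.

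**Figure D4:**
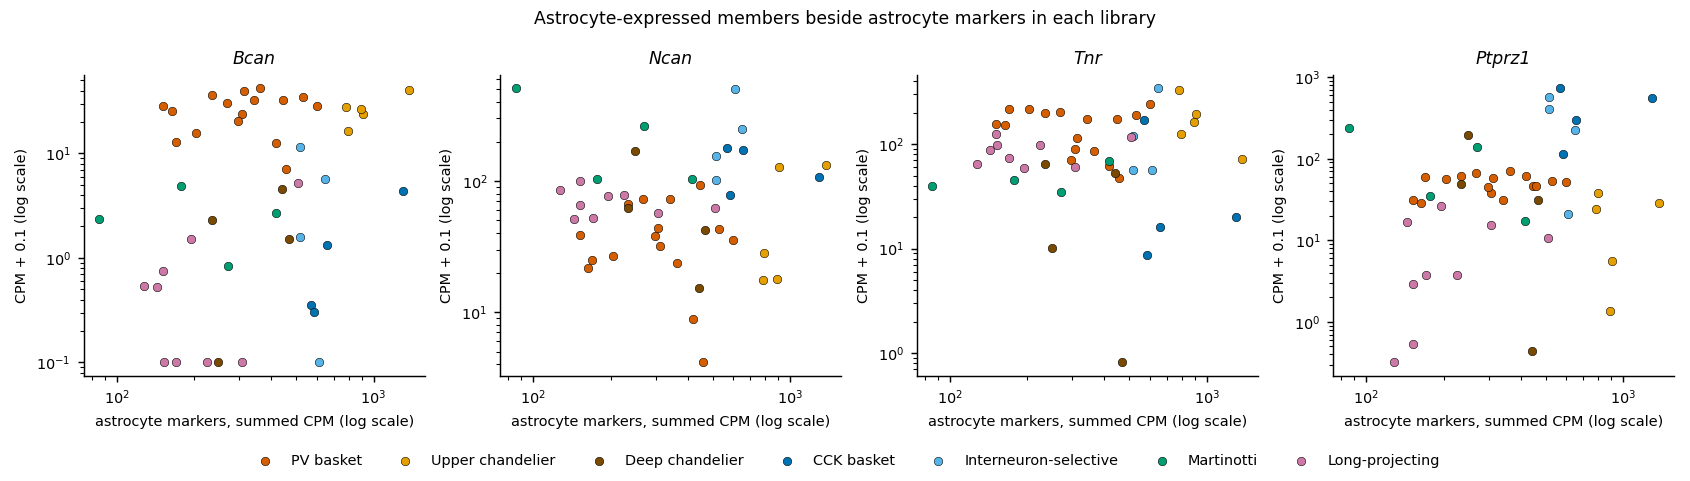
CPM + 0.1 of 4 members that glia also transcribe (Bcan, Ncan, Tnr and Ptprz1), against the summed CPM of 13 astrocyte markers in the same library. Axes are logarithmic, with a point for each library, coloured by type. Upper chandelier libraries have sums of 782 to 1378 CPM, with 549 to 1080 CPM from Glul alone, and Bcan of 16.1 to 40.3 CPM. PV basket libraries have sums of 152 to 600 and Bcan of 6.92 to 42.0 CPM. CCK basket libraries have sums of 570 to 1297 and Bcan of 0.204 to 4.29 CPM.

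The genes whose levels over the 16 replicates were most like each member were taken from 10921 genes that reached 20 CPM in some type, by Pearson r of log2(CPM + 1). For Hapln1 they were Pgbd5 (r = 0.934), Lcorl (0.918) and Kcnab2 (0.899), and for Vcan Gdf10 (0.913), Cct3 (0.848) and Gm12709 (0.848), all highest in deep chandelier cells. For Hapln4 they were Dexi (0.899), Kcns3 (0.865) and Lekr1 (0.856), all highest in PV basket cells, and for Bcan Tcap (0.887), Sh3rf3 (0.852) and Fam36a (0.847). For Ptprz1 they were Nr2f1 (0.888), Tns3 (0.868) and Macrod1 (0.841), for Ncan Gfra4 (0.846), Cited1 (0.839) and Cdc16 (0.835), and for Tnr Dstyk (0.852), Hnrnpul2 (0.824) and Dnali1 (0.823). Among the members themselves Acan correlated with Hapln4 at r = 0.751 and with Bcan at 0.697, and with Ncan at -0.612. These values describe 16 replicates that fall into 7 types.

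Other genes that build, cut or bind nets were counted in 5 lists. In PV basket and both chandelier types against the other 4 types, the lists had 1 of 8 further structural genes higher and 1 lower, 2 of 16 proteases and inhibitors higher and 3 lower, and 2 of 8 genes of hyaluronan turnover higher. They also had 2 of 15 receptors and partners higher and 1 lower, and 2 of 19 genes of chondroitin chain synthesis lower. Set against the 10.5% of all genes called, these are 2 of 8, 5 of 16, 2 of 8, 3 of 15 and 2 of 19. The median log2 changes of the lists were -1.59, -0.219, -0.261, -0.125 and -0.00695, beside 0.000593 over all genes.

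A gene of hyaluronan breakdown was among the higher ones. 9930013L23Rik, which RefSeq lists as a synonym of Cemip (a hyaluronan-degrading protein also called Hybid), averaged 329.6 ± 51.3 CPM in PV basket, 156 ± 22.6 in upper chandelier and 118 ± 43.7 CPM in deep chandelier cells (SD, n = 2 each), and 2.30 to 20.1 CPM in the other 4 types. The log2 difference was 4.93 ± 0.46 (SE, edgeR adjusted p = 1.44e-05). Higher too were 2 proteases of the family that cuts lecticans. Adamts8 averaged 45.5 ± 15.3 in PV basket, 81.6 ± 26.4 in upper chandelier and 96.1 ± 2.58 CPM in deep chandelier cells (SD, n = 2 each), against at most 5.24 CPM in the other 4 types (edgeR adjusted p = 0.000326). Adamts15 averaged 64.6 ± 6.27, 88.6 ± 26.8 and 20.3 ± 12.0 CPM in the same 3 types (SD, n = 2 each), against at most 34.5 CPM in the other 4 (edgeR adjusted p = 0.00895). Of the inhibitors of metalloproteases Timp2 and Timp3 were lower, and Timp4 did not pass (0.56 ± 0.60, SE, edgeR adjusted p = 0.631). Timp2 averaged 124 ± 6.59, 205 ± 11.3 and 110.2 ± 23.0 CPM in PV basket, upper and deep chandelier cells (SD, n = 2 each), against 298 to 871 CPM in the other 4 types (log2 change -1.89 ± 0.16, SE, edgeR adjusted p = 1.00e-05), and Timp3 changed by -2.63 ± 0.75 (SE, edgeR adjusted p = 0.0378), with its highest mean of 146 ± 122 CPM in Martinotti cells (SD, n = 2).

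Each type against the other 6 had 0 to 2 of 8 further structural genes called, 1 to 5 of 15 receptors and partners and 0 to 5 of 19 genes of chondroitin chain synthesis, in comparisons that called 1.91% to 19.1% of all genes. Crtac1, which encodes the secreted cartilage acidic protein, reached 848 ± 215 CPM in upper chandelier cells (SD, n = 2), where the other 6 types averaged 101 CPM (log2 difference 3.53, edgeR adjusted p = 0.00042). Sema3a, a guidance protein that binds chondroitin sulfate in nets, averaged 131 ± 54.1 CPM in Martinotti cells (SD, n = 2), where the other 6 types averaged 20.0 CPM (edgeR adjusted p = 0.000231), and 76.5 ± 32.9 CPM in long-projecting cells (SD, n = 4), where the other 6 types averaged 29.2 CPM (edgeR adjusted p = 0.000177). Ptn encodes pleiotrophin, a ligand of Ptprz1. It averaged 248 ± 52.0 CPM in long-projecting cells (SD, n = 4), where the other 6 types averaged 9.59 CPM (edgeR adjusted p = 5.61e-06), the type in which Ptprz1 was lowest. In CCK basket cells, where Ptprz1 was highest, Ptn had 5 counts in all. Ust, which adds sulfate to uronic acid residues of the chains, was highest in CCK basket (325 ± 35.1 CPM) and interneuron-selective cells (257 ± 89.0 CPM, SD, n = 2 each) and averaged 12.3 to 19.7 CPM in PV basket and chandelier cells. Chst15, which sulfates the chains at another position, reached 220.2 ± 26.9 CPM in Martinotti cells (SD, n = 2), where the other 6 types averaged 7.99 CPM (edgeR adjusted p = 2.76e-05).

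**Figure D5:**
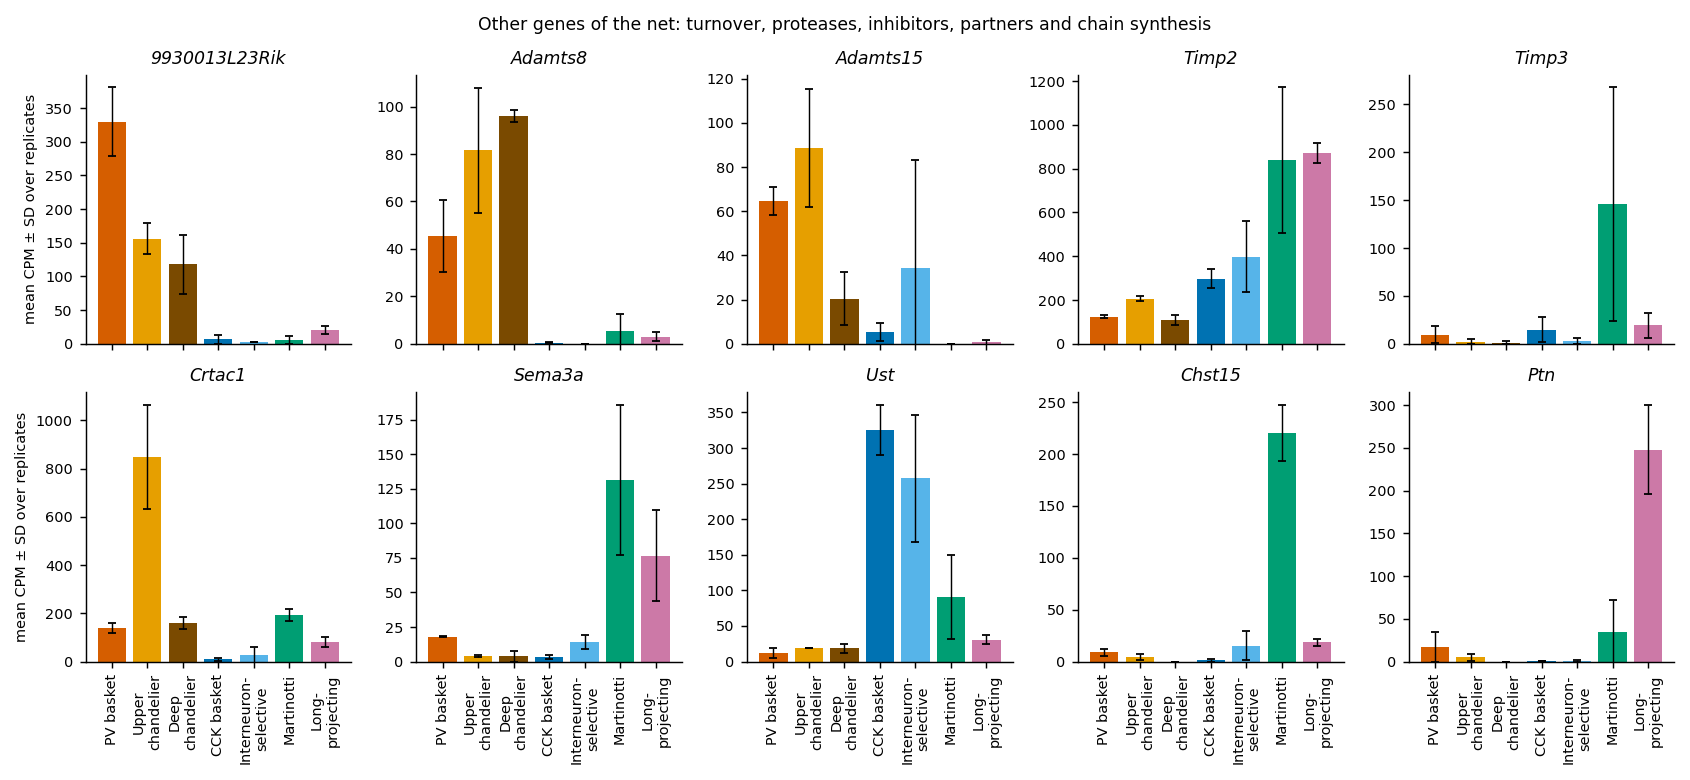
Mean CPM by type of 10 further genes of the net, from hyaluronan turnover, proteases, their inhibitors, matrix partners and chain synthesis, where bars are means over replicates and whiskers their SD (n = 4 in long-projecting cells and 2 in each other type). 9930013L23Rik and Adamts8 are high in PV basket and both chandelier types, Timp2 in Martinotti and long-projecting cells, and Ust in CCK basket and interneuron-selective cells.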

How the data were processed

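The deposited table holds expected counts per gene and cell, which the authors made from reads aligned with Bowtie 0.12.7 to mm9, per the submitters' processing notes. Of its values above 0, 4.07% are not whole (tolerance 1e-06), Bcan and Vcan among the genes that hold some. Per the labels' protocols each amplified molecule carried a random tag, but the sources used here do not say whether tags or reads were counted. The effect of length is not removed, so levels are compared between types and not between genes. The counts of the 584 cells were summed per library and per replicate and rounded to whole numbers. Replicate totals ran from 1203737 to 12324142, and 16 cell barcodes were each shared by 35 to 38 libraries, 1 cell of a library for each. Nothing was left out, and no doublet caller was run on picked cells.

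The 16 replicates are the labelled animals, except that 8 pairs of PV basket libraries agreed closely (with a squared difference of 1.22 to 1.72 times that of counting, against at least 5.37 times in the other pairs of a type), so animals 7 and 8, and 9 and 10, were counted as 1 replicate each. Animal 14 (upper chandelier replicate 2) has 2 ages in the labels and was kept as 1 replicate. P-values measure the spread between these replicates. Replicates were fitted together in edgeR 4.0.16 (R 4.3.3) with TMM scaling, filterByExpr by type and the robust quasi-likelihood test, with Benjamini-Hochberg adjustment over 15533 genes and a threshold of 0.05. The fit had 9 residual degrees of freedom and a biological coefficient of variation of 61.7%. A log2 change averages the other types on the log scale, so it can differ from the ratio of mean CPM. Where a type had no count the fitted change is not given, and 3 counts over the type set the limit. Limits cover counting error only.

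Alternatives were DESeq2 1.42.0, its size factors in edgeR, no filter on low counts, 18 labelled animals and a spread for each type (limma 3.58.1). Others were 46 libraries as units, with and without a block for the number in the sample title. Both of these treat libraries of an animal as separate observations. Replicates, libraries or the libraries of high glial markers (over 3 times the median of their type) were also left out. The members, the lists and the rule for naming were chosen with earlier results of these data known. The rule names all members, up to 4 genes per list and comparison of the smallest adjusted p among those that passed, and 3 genes of like pattern for each member that reached 20 CPM in a type. Promoters of 7 of the 10 members were matched by symbol in RefSeq (GRCm38.p6), and no coordinate was converted from mm9.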

Additional observations from a re-analysis of the deposited data

Results flagged for a closer look

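In 11 of the 57 groups of a gene and a type with 4 to 10 libraries, 1 library stood far from the others by Dixon's test, where chance flags about 1 in 20 groups. In 4 of the 11 every other library was at 0, which fixes the outcome of that test whatever the value, so the number of groups is not read against chance. For Acan they were CHC1-2, at 6.41 CPM against 0 in the other 4 upper chandelier libraries, MNC-1, at 0.370 CPM against 0 in the other Martinotti libraries, and LPC-1, at 0.889 CPM against 0 in the other long-projecting libraries. In CHC1-2 the 15 counts came from 9 of 16 cells, whereas MNC-1 had 1 count and LPC-1 had 2. Acan had too few counts to check whether cells of a library shared a profile. Cells of 1 library are in any case not separate observations. LPC-1 also had the highest Bcan of its type, at 5.11 CPM against 0 to 1.42 CPM. Hapln1 stood at 15.6 CPM in LPC-7 against 3.92 to 9.49 CPM in the other long-projecting libraries.

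Hapln4 stood apart in CHC2-2, at 236 CPM against 0.344 to 2.75 CPM in the other deep chandelier libraries, and in ISC-1, at 45.2 CPM against 0 to 6.22 CPM in the other interneuron-selective libraries. CHC2-2 also held Pvalb at 553 CPM, where CHC2-1, from the same animal, held 0 CPM. CCKC-1 stood apart for Tnr, at 169.9 CPM against 8.58 to 20.2 CPM in the other CCK basket libraries, and for Has2, at 0.254 CPM against 0.817 to 0.859 CPM. Has2 was also apart in CHC2-3, at 0.688 CPM (2 counts) against 0 in the other deep chandelier libraries, and in LPC-3, at 12.5 CPM against 0 to 5.25 CPM in the other long-projecting libraries.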

How the results depend on the processing

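Hapln1 and Vcan in deep chandelier cells, Hapln1 and Ptprz1 in long-projecting cells, and Bcan and Hapln1 in PV basket and chandelier types against the other 4 kept direction and call under every alternative. Hapln4 in deep chandelier cells reversed to -3.04 without CHC2-2, to -3.12 without deep chandelier replicate 1 and to -0.15 with a spread for each type, and reached 3.84 without CHC2-1. The numbers of members called changed as follows, and the cause was not tested. With DESeq2, Martinotti cells had 1, interneuron-selective 2, CCK basket 2 and upper against deep chandelier cells 3, and DESeq2 gave no adjusted p for Acan in PV basket cells. Interneuron-selective cells had 1 under DESeq2's size factors, 1 without a filter, 3 with 18 labelled animals and 2 without the libraries of high glial markers, which left upper chandelier cells with 0 and long-projecting cells with 3. With 18 animals the joint test called 8. A spread for each type gave 8 in the joint test, 3 in PV basket and chandelier types, 1 in PV basket against upper chandelier and 0 in long-projecting against Martinotti cells. Numbers in the sample titles do not pair the samples (median r 0.000522 over 91 pairs of libraries). With 46 libraries and a block for the title number, PV basket cells had 5, long-projecting 3, PV basket against deep chandelier 5 and the joint test 8. With 46 libraries and no block, Martinotti had 1, interneuron-selective 2, PV basket 5 and upper chandelier cells 3. PV basket against deep chandelier then had 6, long-projecting against Martinotti 3, upper against deep chandelier 5 and the joint test 8. Both settings treat libraries of an animal as separate observations. Leaving out 1 replicate or library gave 0 to 1 in Martinotti, 0 to 2 in interneuron-selective, 0 to 2 in CCK basket, 0 to 3 in PV basket, 0 to 1 in upper chandelier, 2 to 4 in deep chandelier and 2 to 5 in long-projecting cells. It gave 3 to 6 in PV basket and chandelier types, 0 to 3 in PV basket against deep chandelier, 0 to 2 in long-projecting against Martinotti, 0 to 2 in upper against deep chandelier, 0 to 4 in upper chandelier against long-projecting cells, and 4 to 7 in the joint test. Where this left 1 sample in a type, it was assumed to vary like the other types. Over all genes the calls moved by over 1.5 times in all 16 comparisons under some setting, so the numbers of members are not read as changes in the members alone. Among settings that left out no single replicate or library, PV basket against deep chandelier cells had 347 to 4755 calls (1069 as reported). Upper against deep chandelier cells had 34 to 2581 (440), long-projecting against Martinotti cells 458 to 1865 (607) and upper chandelier cells 210 to 989 (296). Interneuron-selective cells had 443 to 2743 (1556) and the joint test 3639 to 8677 (3888). PV basket cells had 604 calls as reported, 68 to 966 without 1 replicate and 503 to 3998 under the other settings, deep chandelier cells 2967, 2046 to 3299 and 416 to 4766, long-projecting cells 2036, 1160 to 2671 and 1895 to 3072, and PV basket and chandelier types 1627, 898 to 2479 and 886 to 3618. Acan, Has2 and Has3 rest on 153, 109 and 146 counts.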

Other observations

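The lists of further net genes held other differences. Martinotti cells had higher Timp3 (146 ± 122 CPM, SD, n = 2, where the other 6 types averaged 8.33 CPM, edgeR adjusted p = 0.0019), an inhibitor of metalloproteases. Deep chandelier cells had higher Ptprd, a receptor phosphatase that binds chondroitin sulfate (1810 ± 178 CPM, SD, n = 2, edgeR adjusted p = 0.000162). PV basket cells had lower Ptprd (301 ± 55.8 CPM, SD, n = 2, log2 change -1.75 ± 0.24, SE, edgeR adjusted p = 0.00115) and higher Tmem2, which encodes a hyaluronan-degrading protein (20.4 ± 14.5 CPM, SD, n = 2, where the other 6 types averaged 3.16 CPM, log2 difference 3.06 ± 0.75, SE, edgeR adjusted p = 0.0356).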
